A study of Saccharomyces cerevisiae with 28 samples.

Results

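Transcript levels of 33 yeast genes of fatty acid and phospholipid synthesis were read from Saccharomyces cerevisiae expression arrays. The genes were chosen by name for their roles, out of 5656 genes that had a probe set of their own, and each gene was followed by the probe set with the highest mean over the arrays. All 33 were measured, 30 of them by 1 probe set. FAS1 and FAS2 had 8 probe sets each and EPT1 had more than 1. Each value is a deposited log2 level of a probe set, and differences are differences of log2 levels, with the standard error (SE) of the fit.

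The study compared BY, a laboratory strain isogenic to the reference strain S288C, with RM, a strain from a vineyard. The 28 arrays fall into 8 groups of cells in log phase: diploid hybrids of BY and RM (6 arrays), RM diploids and BY diploids made by crosses within each strain (3 arrays each), equal mixtures of BY and RM mRNA (6 arrays), RM haploids and BY haploids (3 arrays each), haploid segregants of the cross (2 arrays) and diploids from matings of segregants (2 arrays). The labels give neither the mating types nor the marker genes of the strains nor the ploidy of the mixed mRNA. They also do not say that replicates came from separate cultures. The p-values therefore speak of the spread among these arrays alone, and that spread may be technical.

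Yeast builds its membrane phospholipids by 2 routes. One turns CDP-diacylglycerol into phosphatidylserine, decarboxylates it to phosphatidylethanolamine and methylates that to phosphatidylcholine, and the other, the Kennedy pathway, starts from choline and ethanolamine. Inositol enters through phosphatidylinositol. Many genes of these routes are induced when inositol is scarce, through the activators Ino2 and Ino4, and are repressed by Opi1 when inositol is plentiful. Fatty acids are made from malonyl-CoA by a synthase of alpha and beta subunits, desaturated by Ole1, elongated in the endoplasmic reticulum and activated to acyl-CoA.

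The medians of the arrays ran from 7.34 to 7.56. Precision is limited by how few arrays each group has. Correlations of arrays within a group were 0.956 or higher except for mixture replicate 5, whose lowest was 0.916. The mating genes separated the groups. MFA2, an a-factor gene, averaged 12.59 in RM haploids and 6.92 in BY haploids, while SAG1, the alpha-agglutinin gene, averaged 6.90 in RM haploids and 11.94 in BY haploids. Both were high in the mixtures, at 11.49 for MFA2 and 11.60 for SAG1, and both were low in hybrids, RM diploids and BY diploids. GPA1, a gene of haploid cells, averaged 8.20 in the mixtures, against 8.09 in RM haploids and 8.11 in BY haploids, and 5.96 in hybrids, 6.11 in RM diploids and 5.99 in BY diploids. URA3 averaged 6.37 in RM haploids, against 9.47 in BY haploids, and 8.54 in RM diploids, against 8.81 in BY diploids. LYS2 averaged 10.25 in RM diploids, against 8.80 in BY diploids. Mating type cannot be told apart from strain between the haploids, or from ploidy between diploids and haploids, nor from the hybrid state between hybrids and mixtures. In the comparisons among diploids and hybrids MFA2 lay at 6.79 in hybrids, 7.49 in RM diploids and 7.02 in BY diploids, and SAG1 lay at 7.11 in hybrids, 7.34 in RM diploids and 7.28 in BY diploids. Marker genes cannot be told apart from strain or ploidy, and their part in the results was not tested. Probes follow the reference sequence, so fewer transcripts and weaker binding of RM sequence cannot be told apart either.

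The strain comparisons asked how RM differs from BY. In haploids 8 of 33 genes differed, 5 higher and 3 lower in RM, where 18.0% of the 9274 probe sets tested were called (9.89% higher, 8.11% lower) and 17.4% of named genes. The median difference of the 33 genes was 0.14, beside 0.09 over all probe sets. In diploids 7 differed, 3 higher and 4 lower in RM, where 17.2% of probe sets were called (7.40% higher, 9.83% lower) and 18.3% of named genes, with medians of -0.03 and 0.02. The strain difference itself changed with ploidy for 1 gene, INO1, which was lower, where 1.95% of probe sets were called (1.14% higher, 0.809% lower) and 1.82% of named genes. In both strain comparisons the share of the 33 genes called, 24.2% in haploids and 21.2% in diploids, is near these backgrounds. Scaling moved the haploid split to 10 higher and 2 lower after quantile normalization and to 4 and 4 after median centring. Without 3 arrays that stood apart (mixture replicate 5 and hybrid replicates 1 and 6, chosen after seeing the data) the haploid count was 14, with 10 higher, the diploid count 12, with 6 higher, and the interaction count 3. Leaving out mixture replicate 5 alone also gave 3 for the interaction, and leaving out BY diploid replicate 2 gave 4 in diploids.

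Ploidy was compared within each strain. BY diploids had 2 genes higher and 0 lower than BY haploids, where 6.35% of probe sets were called (2.33% higher, 4.02% lower) and 3.50% of named genes. The median over the 33 genes was 0.24 in BY, beside 0.11 over all probe sets. Median centring, which by construction brings arrays to a common level, took the median of all probe sets to 0.01. RM diploids had 0 genes higher and 1 lower than RM haploids, where 8.24% were called (3.71% higher, 4.53% lower) and 7.64% of named genes, with medians of -0.02 and 0.03. The RM split became 1 higher and 2 lower after quantile normalization and 1 and 1 after median centring. In BY the count was 1 without BY haploid replicate 2 and 4 without hybrid replicate 6, and it was 4 without the 3 arrays that stood apart. In RM it was 5 without mixture replicate 5, 3 without RM haploid replicate 3 and 2 without RM haploid replicate 1, BY haploid replicate 3, hybrid replicate 1, hybrid replicate 2 or RM diploid replicate 1. Without the 3 arrays together it was 7, with 5 higher.

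Hybrids were set against the midparent, the log2 of the mean linear level of RM and BY diploids, and against the mixtures. Against the midparent 5 genes were higher and 2 lower, where 18.1% of probe sets were called (6.51% higher, 11.5% lower) and 21.8% of named genes, with medians of -0.02 for the 33 genes and -0.09 for all probe sets. After quantile normalization the split was 4 higher and 5 lower, and after median centring 6 and 1. Against the mixtures 7 were higher and 2 lower, where 28.2% were called (17.1% higher, 11.0% lower) and 32.8% of named genes, with medians of 0.12 and 0.08. Mixtures had 2 genes higher and 0 lower than the midparent of the haploids, where 8.53% were called (1.53% higher, 7.00% lower) and 4.51% of named genes, with medians of -0.04 and -0.06. Quantile normalization gave 2 higher and 3 lower there. Without the 3 arrays that stood apart the counts were 6 for hybrids against the midparent, 10 for hybrids against mixtures and 5 for mixtures against the midparent. The hybrid comparisons share the hybrid arrays and the mixtures enter both of the last comparisons, so their counts are not independent.

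**Figure D1:**
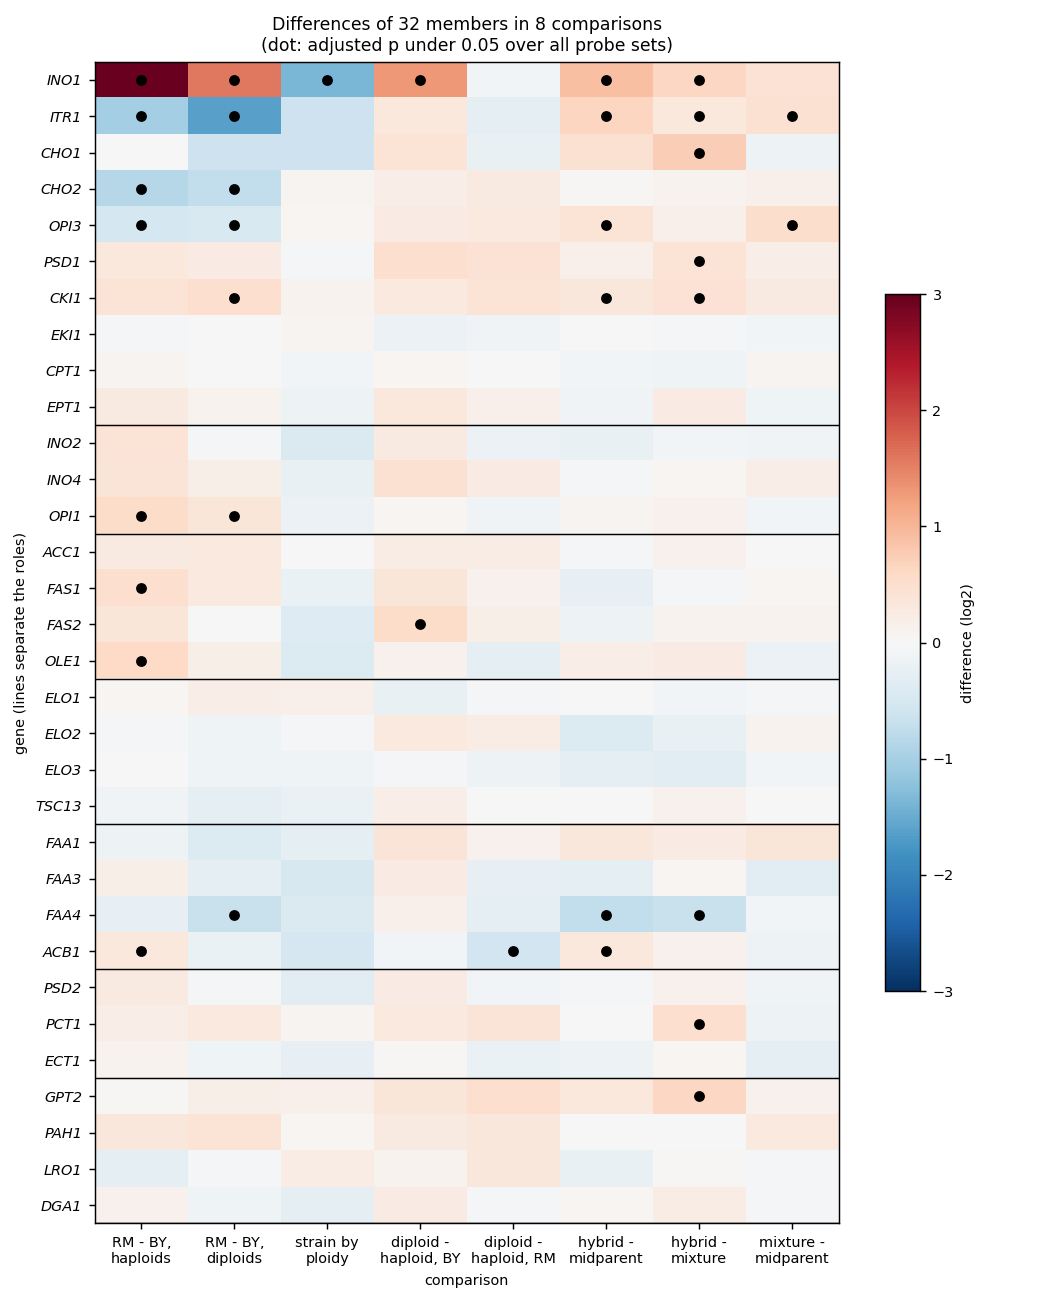
Differences on the log2 scale (colour) of 32 genes (down the page, grouped by role with lines) in 8 comparisons (across), with a dot where the limma adjusted p over all probe sets was under 0.05. INO1 and ITR1 carry the deepest colours, with opposite signs in the strain comparisons, and the elongation genes carry no dot.

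INO1 (YJL153C), inositol-3-phosphate synthase, which makes inositol from glucose-6-phosphate, had the largest strain difference of the 33 genes in haploids. It was at 12.41, 12.59 and 12.57 in RM haploids, against 9.59, 9.69 and 9.42 in BY haploids. Every RM haploid array lay above every BY haploid array. The difference was 2.96 ± 0.18 (SE, n = 3 arrays per strain), a 7.76-fold higher level in RM (limma adjusted p = 5.8e-12).

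Diploids kept the direction with a smaller gap. INO1 was at 12.44, 12.39 and 12.51 in RM diploids, against 11.06, 11.01 and 10.51 in BY diploids. The groups did not overlap, and the difference was 1.59 ± 0.18 (adjusted p = 4.0e-07). The interaction, the diploid strain difference minus the haploid one, was -1.37 ± 0.25 (adjusted p = 0.00235). BY diploids were above BY haploids by 1.29 ± 0.18 (adjusted p = 1.1e-05), while RM diploids and RM haploids overlapped and differed by -0.08 ± 0.18 (adjusted p = 0.886). Beside this BY change, the zinc genes ZAP1, ZRT1 and ZRT3 were higher in BY diploids than in BY haploids by 0.88 ± 0.17, 1.04 ± 0.18 and 0.96 ± 0.15, and ZRT2 was lower by -0.79 ± 0.19. In RM 0 of these 4 zinc genes were called for ploidy. Their part in the INO1 result was not tested.

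Hybrids held INO1 above both diploid parents. The level ran from 12.58 over a median of 12.75 to 12.99 on the 6 hybrid arrays, and the highest diploid parent array was an RM diploid at 12.51. INO1 was the 1 gene of the 33 with every hybrid array above every diploid parent array, a position that 2.26% of probe sets held, and 1 gene, LRO1, had every hybrid array below, as 4.73% of probe sets did. The hybrids exceeded the midparent by 0.90 ± 0.13 (n = 6 hybrid arrays and 3 per parent, limma adjusted p = 1.4e-04). Mixtures ran from 11.81 over 12.09 to 12.75, and overlapped the hybrids through 1 mixture array, replicate 1. The hybrids were above the mixtures by 0.62 ± 0.13 (adjusted p = 6.1e-04). Mixtures differed from the haploid midparent by 0.44 ± 0.14, which did not pass (adjusted p = 0.0604). Of the zinc genes, hybrids against mixtures had ZRT1 higher by 0.45 ± 0.13, ZRT3 higher by 0.36 ± 0.10 and ZRT2 lower by -0.96 ± 0.13, and against the midparent ZRT2 lower by -0.48 ± 0.13. Their part in the hybrid results was not tested. Segregants were at 12.68 and 12.47 for INO1 and segregant hybrids at 12.12 and 11.91.

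**Figure D2:**
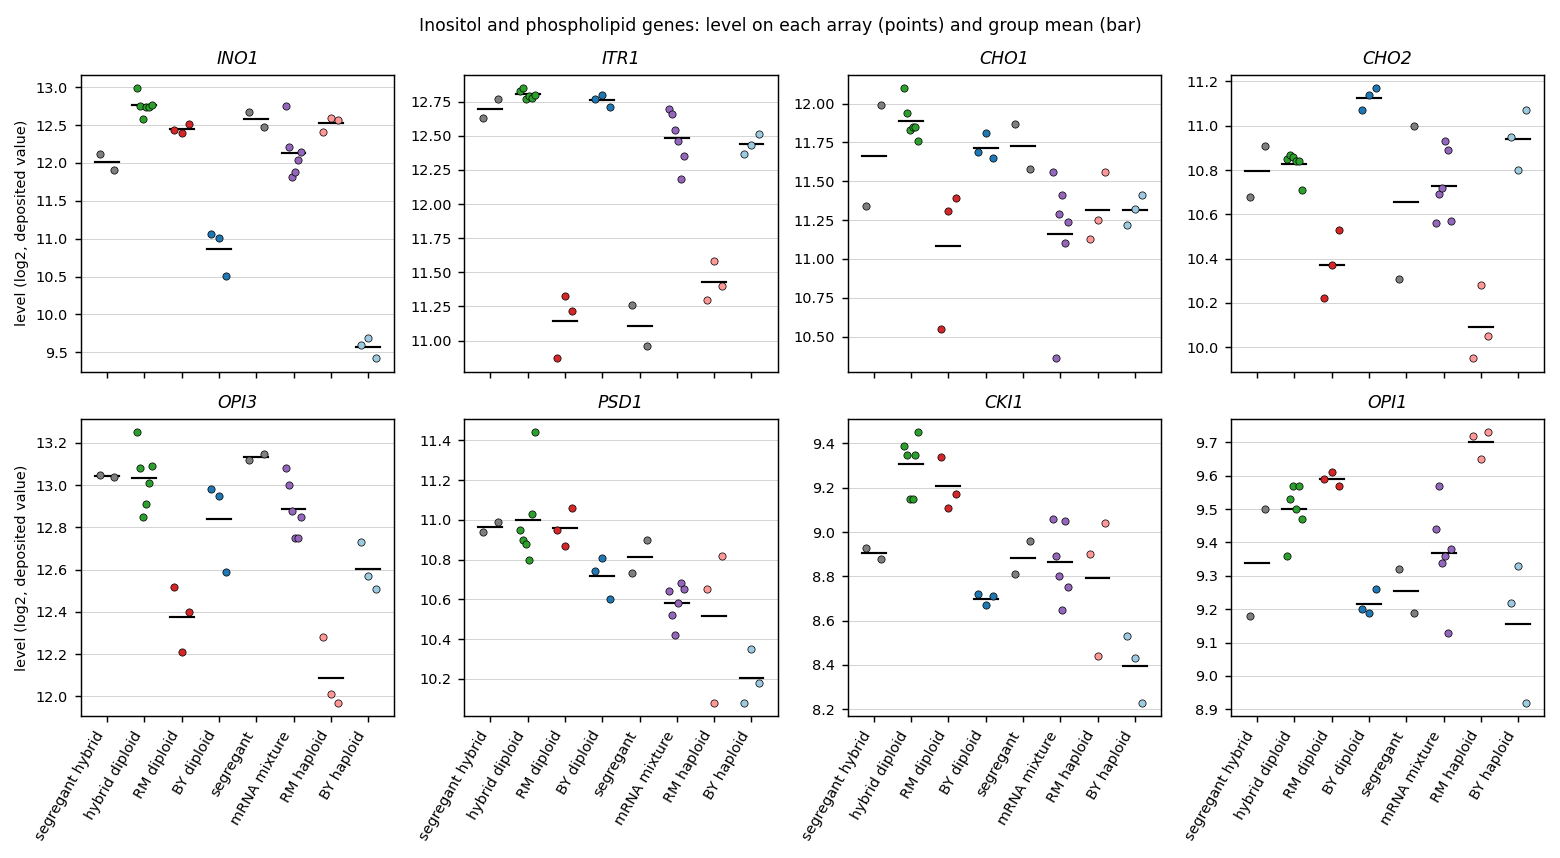
Level of 8 inositol-regulated or regulator genes on each array (points, log2 deposited value, vertical axis) by group (horizontal axis), with the group mean as a bar. BY haploids stand lowest for INO1, at 9.42 to 9.69, while RM diploids stand low for ITR1, at 10.87 to 11.33.

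ITR1 (YDR497C), the major inositol transporter of the plasma membrane, ran the other way between strains. It was at 11.30, 11.58 and 11.40 in RM haploids, against 12.37, 12.43 and 12.51 in BY haploids, a difference of -1.01 ± 0.13 (adjusted p = 1.9e-06). In RM diploids it was at 10.87, 11.33 and 11.22, against 12.77, 12.80 and 12.71 in BY diploids, a difference of -1.62 ± 0.13 (adjusted p = 1.1e-09). Both strain comparisons were free of overlap. The change of the difference with ploidy, -0.61 ± 0.18, did not pass (adjusted p = 0.0968).

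In hybrids ITR1 overlapped the BY diploids and lay above the RM diploids. The 6 hybrid arrays ran from 12.77 over 12.79 to 12.85 and stood 0.64 ± 0.10 above the midparent (adjusted p = 1.5e-04). The mixtures ran from 12.18 over 12.50 to 12.70, below every hybrid array. Hybrids exceeded mixtures by 0.32 ± 0.09 (adjusted p = 0.00952). Mixtures in turn exceeded the haploid midparent by 0.46 ± 0.09 (adjusted p = 0.00603), a call that ended in a fit on the compared groups alone (adjusted p = 0.0646). The mixture mean was 12.48, beside 12.44 in BY haploids and 11.43 in RM haploids. The segregants, at 11.26 and 10.96, lay below the 6 arrays of RM and BY haploids, and segregant hybrids were at 12.63 and 12.77.

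CHO2 and OPI3, the methyltransferases that turn phosphatidylethanolamine into phosphatidylcholine, were lower in RM. CHO2 (YGR157W) was at 9.95, 10.28 and 10.05 in RM haploids, against 10.95, 10.80 and 11.07 in BY haploids. It was at 10.22, 10.37 and 10.53 in RM diploids, against 11.07, 11.14 and 11.17 in BY diploids. RM and BY did not overlap at either ploidy. The differences were -0.85 ± 0.12 in haploids (adjusted p = 7.8e-06) and -0.75 ± 0.12 in diploids (adjusted p = 4.7e-05). Hybrids, from 10.71 over 10.84 to 10.87, lay between the diploid parents, 0.03 ± 0.09 from the midparent (adjusted p = 0.833).

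OPI3 (YJR073C) was at 12.28, 12.01 and 11.97 in RM haploids, against 12.73, 12.57 and 12.51 in BY haploids. In RM diploids it was at 12.52, 12.21 and 12.40, against 12.98, 12.95 and 12.59 in BY diploids. RM was below BY on every array of both comparisons, by -0.52 ± 0.13 in haploids (adjusted p = 0.00749) and -0.46 ± 0.13 in diploids (adjusted p = 0.0175). Quantile normalization ended both calls, with adjusted p = 0.0952 and 0.178, and the diploid call ended without BY diploid replicate 1 or 2 or RM diploid replicate 2 (highest adjusted p = 0.0978). In hybrids OPI3 ran from 12.85 over 13.04 to 13.25, or 0.40 ± 0.10 above the midparent (adjusted p = 0.00584). Mixtures, from 12.75 over 12.87 to 13.08, were 0.52 ± 0.10 above the haploid midparent (adjusted p = 0.00427), a call that ended in a fit on the compared groups alone (adjusted p = 0.0646) and with the diploid parents as midparent (adjusted p = 0.0535). Every mixture array lay above every RM and BY haploid array, the highest of which was at 12.73. Hybrids and mixtures overlapped, with means of 13.03 and 12.88, and that comparison was not called.

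CHO1 (YER026C), phosphatidylserine synthase, and PSD1 (YNL169C), the mitochondrial decarboxylase of phosphatidylserine, passed the test in 1 comparison each, hybrids against mixtures. CHO1 ran from 11.76 over 11.85 to 12.10 in hybrids, against 10.36 over 11.27 to 11.56 in mixtures, a difference of 0.73 ± 0.16 (n = 6 each, limma adjusted p = 0.0012). PSD1 ran from 10.80 over 10.93 to 11.44 in hybrids, against 10.42 over 10.61 to 10.68 in mixtures, a difference of 0.42 ± 0.11 (adjusted p = 0.0075). Hybrids stood above mixtures on every array for both genes. Haploid CHO1 levels differed between strains by -0.00 ± 0.23 (adjusted p = 0.995), while the diploid difference of -0.63 ± 0.23 fell short (adjusted p = 0.0559) and came with a spread of 10.55, 11.31 and 11.39 in RM diploids, against 11.69, 11.81 and 11.65 in BY diploids.

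In the Kennedy pathway, CKI1 and PCT1 were called and the other members were not. CKI1 (YLR133W), choline kinase, was at 9.34, 9.11 and 9.17 in RM diploids, against 8.72, 8.67 and 8.71 in BY diploids, without overlap. The difference was 0.51 ± 0.14 (adjusted p = 0.0141), and the call ended without BY diploid replicate 2 (adjusted p = 0.0509) or RM diploid replicate 1 (adjusted p = 0.0745). In haploids it was 0.40 ± 0.14 (adjusted p = 0.0561). Hybrids, from 9.15 over 9.35 to 9.45, exceeded the midparent by 0.33 ± 0.10 (adjusted p = 0.0258), a call that ended after quantile normalization (adjusted p = 0.0829), without any of 5 arrays (hybrid replicates 1, 2 and 6 and RM diploid replicates 2 and 3) and without the 3 arrays that stood apart (adjusted p = 0.0828). They exceeded the mixtures, from 8.65 over 8.85 to 9.06, by 0.44 ± 0.10 (adjusted p = 0.00175). PCT1 (YGR202C), the enzyme that makes CDP-choline after the choline kinase step, was higher in hybrids than in mixtures by 0.51 ± 0.10 (adjusted p = 3.6e-04), with 7.99 over 8.09 to 8.24 in hybrids, against 7.13 over 7.62 to 7.86 in mixtures.

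The ethanolamine kinase EKI1, its follower ECT1 and the final transferases CPT1 and EPT1 passed in 0 of the 8 comparisons. Their group means over the 8 groups spanned 0.33 for EKI1, 0.33 for ECT1, 0.22 for CPT1 and 0.42 for EPT1, beside 3.19 for INO1. Of the 10 inositol-regulated genes (INO1, ITR1, CHO1, CHO2, OPI3, PSD1, CKI1, EKI1, CPT1 and EPT1), RM haploids had 1 higher and 3 lower than BY haploids (median 0.04) and RM diploids 2 higher and 3 lower than BY diploids (median 0.00). Hybrids had 4 higher and 0 lower than the midparent (median 0.24) and 5 higher and 0 lower than mixtures (median 0.29). The shares called were 40% and 50% between strains in haploids and diploids, where 18.0% and 17.2% of all probe sets were called, with medians of 0.09 and 0.02. They were 40% and 50% for hybrids against the midparent and against mixtures, where 18.1% and 28.2% were called, with medians of -0.09 and 0.08. Of named genes, with 1 probe set each, 17.4% and 18.3% were called between strains, and 21.8% and 32.8% in the hybrid comparisons.

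Among the regulators, OPI1 (YHL020C), the repressor, was higher in RM. It was at 9.72, 9.65 and 9.73 in RM haploids, against 9.22, 9.33 and 8.92 in BY haploids, a difference of 0.54 ± 0.11 (adjusted p = 9.2e-04). In RM diploids it was at 9.59, 9.61 and 9.57, against 9.20, 9.19 and 9.26 in BY diploids, a difference of 0.37 ± 0.11 (adjusted p = 0.0218). The RM arrays were above the BY arrays throughout, although the diploid call ended without any of 4 arrays, BY diploid replicates 1 and 2 and RM diploid replicates 1 and 2 (highest adjusted p = 0.0742). Hybrids, from 9.36 over 9.52 to 9.57, lay between the diploid parents. The activator genes were not called in any of the 8 comparisons: in haploids INO2 differed by 0.41 ± 0.16 (adjusted p = 0.0905) and INO4 by 0.39 ± 0.17 (adjusted p = 0.122).

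Of the 4 genes of fatty acid synthesis, 2 were called between strains in haploids, FAS1 and OLE1, and 0 in diploids. Over all named genes 17.4% and 18.3% were called in these comparisons. A change of the strain difference with ploidy was called for 0 of the 4. OLE1 (YGL055W), the desaturase that makes monounsaturated fatty acids, was at 10.64, 11.17 and 11.00 in RM haploids, against 10.33, 10.24 and 10.44 in BY haploids. The groups did not overlap, and RM was higher by 0.60 ± 0.15 (adjusted p = 0.00478). In diploids the groups overlapped and differed by 0.18 ± 0.15 (adjusted p = 0.487), and the interaction of -0.42 ± 0.21 did not pass (adjusted p = 0.502). ACC1, the acetyl-CoA carboxylase, differed by 0.28 in haploids (adjusted p = 0.0873) and 0.29 in diploids (adjusted p = 0.0735), both without a call.

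FAS1 (YKL182W), the beta subunit of fatty acid synthase, was at 12.65, 12.56 and 12.50 in RM haploids, against 12.41, 12.23 and 11.57 in BY haploids. RM was higher by 0.50 ± 0.17 (adjusted p = 0.044), and 1 array, BY haploid replicate 3, lay far below the other two. Without it the difference was 0.25 (adjusted p = 0.329), and the call also ended in a fit on the compared groups alone (adjusted p = 0.152), with array weights (adjusted p = 0.0712), with the mean of the gene's probe sets (a difference of 0.41, adjusted p = 0.0989) and without any of 13 arrays in turn. Its 8 probe sets gave strain differences from 0.05 to 0.73 in haploids, and 5 of the 8 were called.

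FAS2 (YPL231W), the alpha subunit, was higher in BY diploids by the probe set used, at 12.89, 12.89 and 12.90 in BY diploids, against 12.56, 12.19 and 12.25 in BY haploids. The difference was 0.56 ± 0.13 (adjusted p = 0.00624), or 0.49 without BY haploid replicate 2 (adjusted p = 0.0504). For FAS1 the probe set used for naming gave 0.36 ± 0.17 (adjusted p = 0.326), whereas 6 of its 8 probe sets were called higher in BY diploids than in BY haploids. FAS2 had 3 of 8 called there. In RM 0 probe sets of either gene were called for ploidy. One FAS2 probe set was lower in RM at both ploidies, at -0.39 in haploids and -0.53 in diploids, both called, beside 0.36 and -0.02 for the probe set used. In haploids the other 7 lay between -0.00 and 0.57, and in diploids between -0.37 and 0.13. The probe sets used for both genes have names ending in _s_at, a kind that can share sequence with relatives, so their values are uncertain. The FAS2 probe set lower in RM has a name ending in plain _at. Its haploid means were 11.67 in RM and 12.06 in BY. Another plain FAS2 set, with haploid means of 7.16 in RM and 6.59 in BY, differed by 0.57 (limma adjusted p = 0.0679). For FAS1 the plain sets gave haploid strain differences of 0.42 (adjusted p = 0.00248) and 0.05 (adjusted p = 0.944). Which kind follows these genes better was not tested.

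**Figure D3:**
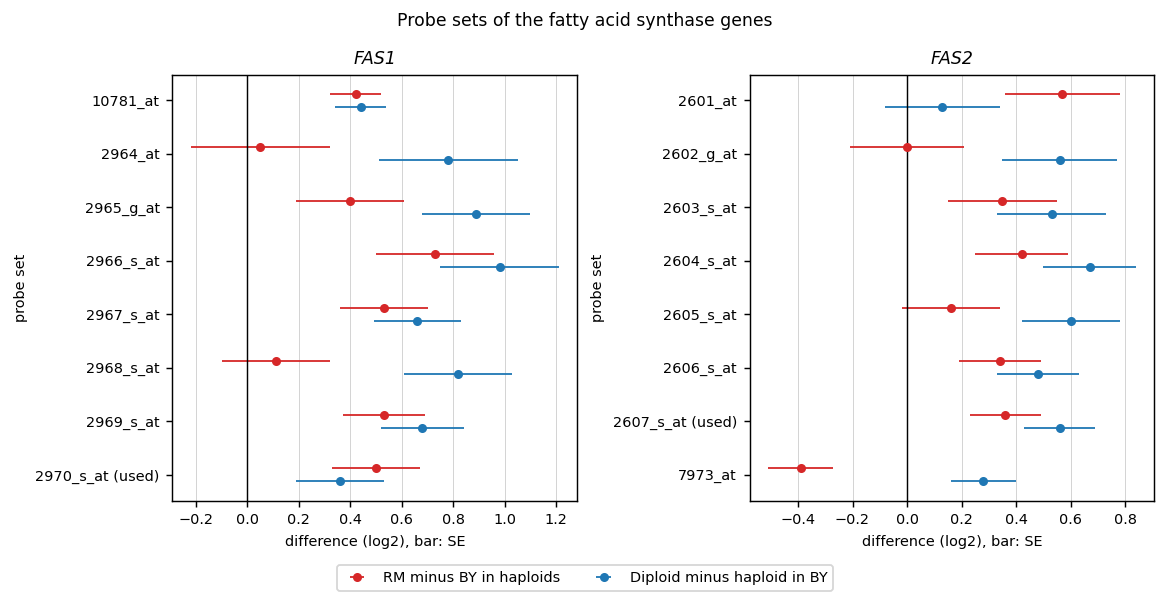
Differences on the log2 scale (points, with the SE as a line) of the 8 probe sets each of FAS1 and FAS2, for RM minus BY in haploids and for diploid minus haploid in BY. The points are on the right of 0 except for 1 FAS2 probe set between strains, at -0.39, and another at -0.00.

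**Figure D4:**
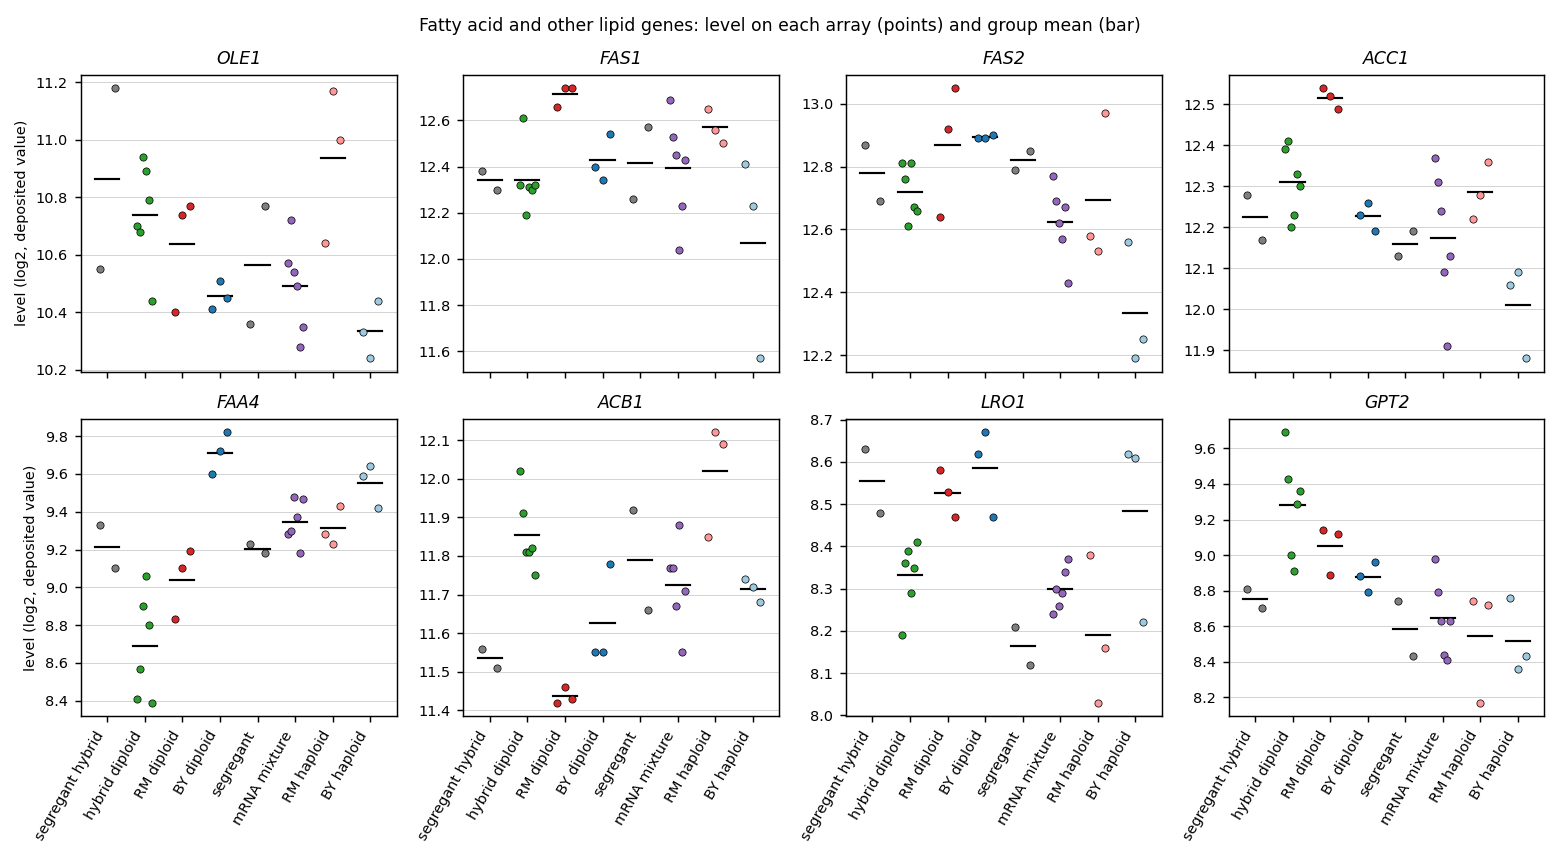
Level of 8 further genes on each array (points, log2 deposited value, vertical axis) by group (horizontal axis), with the group mean as a bar. FAA4 is lowest in hybrids, at 8.39 to 9.06, ACB1 is lowest in RM diploids, at 11.42 to 11.46, and 1 BY haploid array stands apart for FAS1, at 11.57.

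The elongation genes, the elongases ELO1, ELO2 and ELO3 and the enoyl reductase TSC13, passed in 0 of 8 comparisons. Their strain differences in haploids lay between -0.11 and 0.05. Hybrids were below the midparent by -0.40 for ELO2 (adjusted p = 0.0863) and by -0.30 for ELO3 (adjusted p = 0.0921), neither of which passed. ELO3 (YLR372W) was at 10.69 on hybrid replicate 1 and between 11.19 and 11.68 on the other hybrids.

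FAA4 (YMR246W), a synthetase that activates long-chain fatty acids to acyl-CoA, was lowest in hybrids. Hybrid arrays ran from 8.39 over 8.69 to 9.06. RM diploids were at 8.83, 9.10 and 9.19, against 9.60, 9.72 and 9.82 in BY diploids, and the strain difference was -0.67 ± 0.15 (adjusted p = 0.00242). Hybrids were below the midparent by -0.73 ± 0.11 (adjusted p = 1.3e-04), with some hybrid arrays inside the range of RM diploids. They were below the mixtures, which ran from 9.18 over 9.34 to 9.48, on every array, by -0.66 ± 0.11 (adjusted p = 4.5e-05). Haploids differed by -0.24 ± 0.15 (adjusted p = 0.334). FAA1 and FAA3, other acyl-CoA synthetases, passed in 0 of 8 comparisons.

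ACB1 (YGR037C), the protein that binds and carries acyl-CoA, fell in RM diploids. It was at 11.42, 11.46 and 11.43 in RM diploids, against 11.85, 12.12 and 12.09 in RM haploids. No array of the first group reached the second, and the difference was -0.58 ± 0.11 (adjusted p = 6.0e-04). In haploids RM exceeded BY, at 11.74, 11.72 and 11.68 in BY haploids, by 0.31 ± 0.11 (adjusted p = 0.0472), a call that ended after median centring (adjusted p = 0.122), in a fit on the compared groups alone (adjusted p = 0.178), with array weights (adjusted p = 0.13) and without any of 17 arrays in turn (highest adjusted p = 0.154, without RM haploid replicate 2). The change with ploidy, -0.50 ± 0.15, did not pass (adjusted p = 0.105). Hybrids, from 11.75 over 11.82 to 12.02, were above the midparent by 0.32 ± 0.08 (adjusted p = 0.00584).

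PSD2, the decarboxylase of phosphatidylserine outside mitochondria, passed in 0 of 8 comparisons.

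Phosphatidate and triacylglycerol genes were called once. GPT2 (YKR067W), a glycerol-3-phosphate acyltransferase that starts phosphatidate synthesis, ran from 8.91 over 9.32 to 9.69 in hybrids, against 8.41 over 8.63 to 8.98 in mixtures. The ranges overlapped, and hybrids were higher by 0.63 ± 0.13 (adjusted p = 7.8e-04). LRO1 (YNR008W), which moves an acyl group from a phospholipid to diacylglycerol, ran from 8.19 over 8.36 to 8.41 in hybrids. RM diploids were at 8.58, 8.53 and 8.47 and BY diploids at 8.62, 8.67 and 8.47, above every hybrid array. Its difference from the midparent, -0.23 ± 0.08, fell just short (adjusted p = 0.0524). PAH1, phosphatidate phosphatase, and DGA1, a diacylglycerol acyltransferase, passed in 0 of 8 comparisons.

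**Figure D5:**
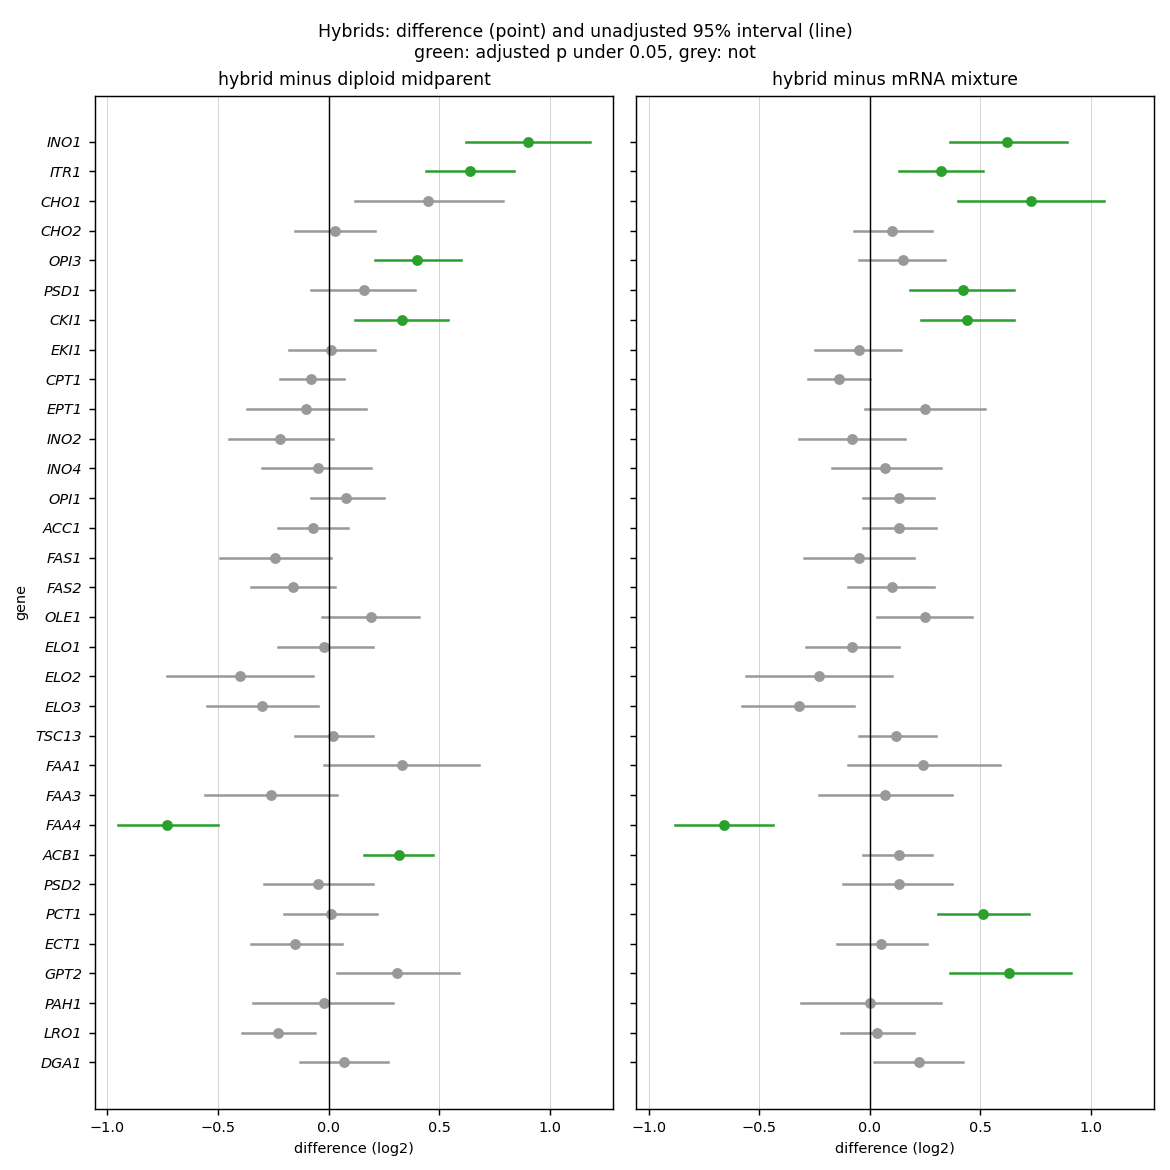
Difference on the log2 scale (points) with an unadjusted 95% interval (lines) of 32 genes for hybrids minus the diploid midparent (left) and hybrids minus mixtures (right), green where the limma adjusted p was under 0.05. INO1, at 0.90, is farthest right on the left panel, and FAA4, at -0.73 and -0.66, is farthest left on both.

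Each segregant array may be another genotype, so these 4 arrays are given as values and not tested. The marker gene LEU2 was at 7.43 and 10.47 on the segregant arrays, beside means of 7.85 in RM haploids and 10.68 in BY haploids. SAG1 was at 12.59 and 12.32 and MFA2 at 6.73 and 6.80 on them, nearer to BY haploids than to RM haploids. The part of these genes in the segregant levels was not tested. On both segregant arrays CHO1, OPI3 and TSC13 lay above the 6 arrays of RM and BY haploids (3 genes, where 2.38% of probe sets did) and ITR1 and ECT1 below them (2 genes, where 4.47% did). OPI3 was at 13.12 and 13.15 in segregants, while the highest haploid array was at 12.73. All mixture arrays, at 12.75 to 13.08, also lay above that haploid array, so this position was not particular to segregants. On both segregant hybrid arrays OPI3, INO2, ELO2 and ELO3 lay above the 6 arrays of RM and BY diploids (4 genes, where 2.79% did) and EKI1 below them (1 gene, where 3.86% did). OPI3 was at 13.05 and 13.04 there, while the highest diploid array was at 12.98.

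A further 54 genes of lipid metabolism, chosen by role, were counted in the same fit. RM haploids had 7 higher and 2 lower than BY haploids, or 16.7%, near the 17.4% of named genes. PLB2, a phospholipase B, was higher by 1.09 ± 0.21 (adjusted p = 4.3e-04), ACS2, an acetyl-CoA synthetase, by 0.93 ± 0.10 (adjusted p = 8.0e-08), GPD1, a glycerol-3-phosphate dehydrogenase, by 0.85 ± 0.18 and ARE2, a sterol acyltransferase, by 0.70 ± 0.18. ETR1, a reductase of mitochondrial fatty acid synthesis, was lower by -0.76 ± 0.19 and ARE1, the other sterol acyltransferase, by -0.42 ± 0.11. RM diploids had 7 higher and 7 lower than BY diploids (25.9%, against 18.3% of named genes), among them PLB2 at 0.89 ± 0.21, GPD1 at 0.78 ± 0.18, ETR1 at -0.83 ± 0.19 and ARE1 at -0.64 ± 0.11. The interaction called 0 of the 54, where 1.82% of named genes were called.

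With ploidy, 2 of the 54 genes were called in BY and 3 in RM, or 3.7% and 5.56%, against 3.50% and 7.64% of named genes. BY diploids had 2 higher and 0 lower, SCS2, a protein of the endoplasmic reticulum that binds Opi1, by 0.37 ± 0.11 (adjusted p = 0.0326) and ACS2 by 0.34 ± 0.10. RM diploids had 1 higher, GPD2, a glycerol-3-phosphate dehydrogenase, by 0.64 ± 0.13, and 2 lower, the elongation dehydratase PHS1 by -0.66 ± 0.15 and the lipase TGL5 by -0.53 ± 0.09. PHS1 was at 9.56, 8.90 and 9.61 in RM diploids, with replicate 2 far below the rest, against 9.97 to 10.10 in RM haploids. Hybrids had 6 higher and 5 lower than the midparent (20.4%, against 21.8% of named genes), with ETR1 at 0.54 ± 0.14, ARE1 at -0.51 ± 0.08 and ITR2, the minor inositol transporter, at -0.35 ± 0.08 (adjusted p = 0.00389). Against mixtures hybrids had 14 higher and 6 lower (37%, against 32.8% of named genes), with GPD1 at 0.67 ± 0.13 and MGA2, an activator of OLE1, at -0.56 ± 0.17. MGA2 was at 8.88 on mixture replicate 5, against 7.25 to 7.69 on the other mixtures, so the size of its difference rests partly on that array. Mixtures had 0 higher and 1 lower than the haploid midparent (1.85%, against 4.51% of named genes), the mitochondrial gene PPT2 at -0.39 ± 0.09 (adjusted p = 0.013).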

How the data were processed

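Deposited values, 1 per probe set, run from 0.00 to 14.67 and were taken as log2 levels because of that range. How the authors summarised the arrays into log2 values is not stated in the labels or headers, and is not given in the sources read. Of 9335 probe sets, 60 controls and 1 at 0 on every array were left out, leaving 9274. The platform annotation gave 6504 of these 1 gene, all matched to the R64 annotation. Columns without a sample numbered 0.

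Group means of 24 arrays in 6 groups were fitted with limma 3.58.1 in R 4.3.3 (lmFit, eBayes, no trend). Tests were two-sided, adjusted by Benjamini-Hochberg across all 9274, and called under 0.05. The 4 segregant arrays stayed out of the fit. A midparent is the log2 of the mean linear level of the parents, with a delta-method error and moderated variance. The fit was tested on simulated data. Any of the 33 genes could be named, and of 54 other pathway genes up to 4 called ones per direction, by size, of which the text gives part. The values of 1 of the 33 genes are not reported here, though the counts and medians include it. The 33 genes and the lists were chosen with earlier results of these data known. Alternatives were other scalings, filters, midparents and fits, a replicate block, array weights and leaving out arrays. Plots came from Python 3.11.15 and matplotlib 3.10.9.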

Additional observations from a re-analysis of the deposited data

Results flagged for a closer look

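Single arrays stood far from the rest of their group in 10 of 66 cases tested (33 genes in the 6 hybrid and the 6 mixture arrays), where chance gives about 1 in 20. Genes on the same array are not independent, and the screen was not run over all probe sets. The count therefore cannot be read as particular to these genes. Hybrid replicate 6 gave 4 of the 10: CHO2 was at 10.71 (the other hybrids at 10.84 to 10.87), PSD1 at 11.44, INO4 at 8.44 and PAH1 at 8.63. Mixture replicate 5 gave another 4, with INO2 at 7.45, PSD2 at 6.83, PAH1 at 8.43 and DGA1 at 7.82. FAS1 was at 12.61 on hybrid replicate 2, and ECT1 was at 9.01 on hybrid replicate 1. Mixture replicate 5 is the array with the low correlation to its group. Given an array weight, it had 0.06, hybrid replicate 6 had 0.27 and hybrid replicate 1 had 0.29. Low weights also fell on parental arrays, at 0.27 for RM haploid replicate 2 and RM diploid replicate 1 and 0.34 for BY haploid replicate 3. The screen for single arrays did not cover the parental groups.

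The strain difference of INO1 differed between ploidies, by -1.37 ± 0.25 as RM minus BY in diploids minus that in haploids (limma adjusted p = 0.00235).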

How the results depend on the processing

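Of 264 gene and comparison pairs, 37 were called, and under the settings run 11 of these lost the call at least once while 0 turned direction. The calls of INO1, CHO2, FAA4 and OLE1, and those of ITR1 between strains and in hybrids, held in every setting run. Counts of the 33 genes called moved by over 1.5 times as follows. For arrays left out, the counts of every comparison are given, also those that moved by less. Quantile normalization gave 3 for the interaction, 3 for ploidy in RM and 5 for mixtures against the midparent. Ploidy in RM became 2 with median centring, the variance trend or the replicate block, 3 without the dimmest 25% of probe sets and 3 with a floor at 5.73, where the interaction was 3. The compared groups alone gave 5 for ploidy in BY and 0 for mixtures against the midparent, and the diploid parents as midparent gave 4 there. Array weights gave 13 and 15 for strain in haploids and diploids, 2 for the interaction, 6 and 8 for ploidy in BY and RM, 19 and 16 for hybrids against midparent and mixtures, and 6 for mixtures. Without the 3 arrays that stood apart, a choice made after seeing the data, these were 14, 12, 3, 4, 7, 6, 10 and 5 in that order. Leaving out 1 array gave 6 to 12 for strain in haploids, 4 to 9 in diploids, 1 to 3 for the interaction, 1 to 4 for ploidy in BY, 1 to 5 in RM, 5 to 10 and 9 to 11 for hybrids, and 2 to 3 for mixtures. The causes were not tested. Same-numbered arrays of different groups had deviations correlated from -0.29 to 0.46, over 0.1 in 19 of 48 pairs. Differently numbered arrays were not set beside them, so these values cannot decide whether replicate numbers pair the samples. The replicate block ended the call of ACB1 between haploid strains (limma adjusted p = 0.0648). Its counts were 8 and 7 for strain in haploids and diploids, 1 for the interaction and 2 and 2 for ploidy in BY and RM. They were 7 and 11 for hybrids against midparent and mixtures, and 3 for mixtures.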
